A study of Homo sapiens with 2 samples.

Results

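Of the 39801 peaks of antibody-captured RNA called in HCCLM3 cells, 97 (0.244%) lay within 3 kb of the annotated start of a microRNA gene named by a microRNA symbol. They were taken by 2 fields of the deposited peak table: a symbol beginning with MIR or MIRLET and a number, host genes ending in HG left out, and a distance of at most 3000 bp. The distance runs from the nearest edge of the peak to the 5′ end of the hairpin, which is what a microRNA gene's start means in such an annotation. The 97 peaks carried 80 microRNA symbols, of which 65 had 1 peak and 15 had more than 1. The rule uses name and position and no measured value, although it was set with earlier results of these data known. A further 169 peaks, at 135 gene identifiers of microRNA genes, met the same distance but had an empty symbol field, so the 97 are 36.5% of 266 such peaks.

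N6-methyladenosine (m6A), a methylated adenosine found inside many RNAs, was measured in HCCLM3, an established human hepatocellular carcinoma line of high metastatic capacity. The series concerns CRTC2, a coactivator of transcription, and YTHDF2, a reader of m6A. Its design here was 1 m6A-RIP library, from RNA caught with an antibody, against 1 input library, both of wild-type genotype. Both groups share the line, the Magna RIP kit and the SMARTer Stranded Total RNA-Seq Pico kit, no drug treatment is labelled, and neither group had a replicate, so each value describes these libraries and no difference has a replicate check. In the peak list, the hepatocyte regulator gene HNF4A held 6 peaks and the lipoprotein gene APOB 4, while ALB, APOA1, SERPINA1, TTR and AFP held none, which does not measure their expression.

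A microRNA is made from a long primary transcript, either a gene of its own or the RNA of a host gene in whose intron or exon the hairpin lies. In the nucleus the DROSHA and DGCR8 complex cuts the hairpin out, DICER1 trims it in the cytoplasm, and an Argonaute protein carries the mature strand, whose seed at bases 2 to 8 pairs with target RNAs. Methylation marks on primary transcripts near hairpins have been studied as signals to DGCR8. Because hairpins sit inside other transcripts, a peak near one can belong to the host's messenger RNA, to its intron or to the primary microRNA. The table gives no strand for a peak, so sense and antisense RNA at one place cannot be told apart.

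The sequences that the following results turn on are given 5′ to 3′ from RefSeq on GRCh38.p14, with seeds in capitals. The first set holds microRNAs of the highest folds, of the best-supported peaks and of the growth-control families named later, shown so that members can be grouped by what they would bind.
hsa-miR-922: gCAGCAGAgaauaggacuacguc
hsa-miR-1276: uAAAGAGCccuguggagaca
hsa-miR-99b-5p: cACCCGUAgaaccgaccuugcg
hsa-miR-26a-5p: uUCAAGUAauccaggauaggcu
hsa-miR-23b-3p: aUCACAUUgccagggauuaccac
hsa-miR-6769a-5p: aGGUGGGUauggaggagcccu
hsa-miR-17-5p: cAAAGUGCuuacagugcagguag
hsa-let-7f-5p: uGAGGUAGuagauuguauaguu
hsa-miR-34a-5p: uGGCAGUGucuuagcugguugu
hsa-miR-126-3p: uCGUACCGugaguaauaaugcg
A second set shows members at different loci that share a seed. MIR103A2 and MIR107 lie inside the pantothenate kinase genes PANK2 and PANK1, and MIR363 and MIR367 lie in different clusters.
hsa-miR-103a-3p: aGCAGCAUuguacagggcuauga
hsa-miR-107: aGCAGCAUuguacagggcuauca
hsa-miR-363-3p: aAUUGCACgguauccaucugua
hsa-miR-367-3p: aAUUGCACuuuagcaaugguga

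The fold of a peak is the ratio of RIP to input at its summit, with a pseudocount of 1 on both sides, so it is held down where input is low. Over the 97 peaks the fold had a median of 3.38 (quartiles 2.75 to 4.40) and ran from 1.68 to 13.0, against a median of 3.33 over all peaks. A q-value under 0.05 was reached by 58 of the 97 (59.8%, 95% Wilson interval 49.8 to 69.0), beside 48.8% of all peaks. The 5290 other peaks with a promoter label, the label that every member also carries, stood at 60.9%, and the 169 peaks at microRNA genes without a symbol at 60.9%. At a q-value under 1e-5 there were 34 members (35.1%, 26.3 to 45.0), beside 25.8% of all peaks and 33.9% of other promoter-labelled peaks. A fold of at least 4 was also reached by 34 (35.1%), beside 33.9% of all peaks and 37.6% of other promoter-labelled peaks, whose median fold was 3.45. In share and in fold, then, the microRNA peaks lay within a few points of other promoter-labelled peaks.

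**Figure D1:**
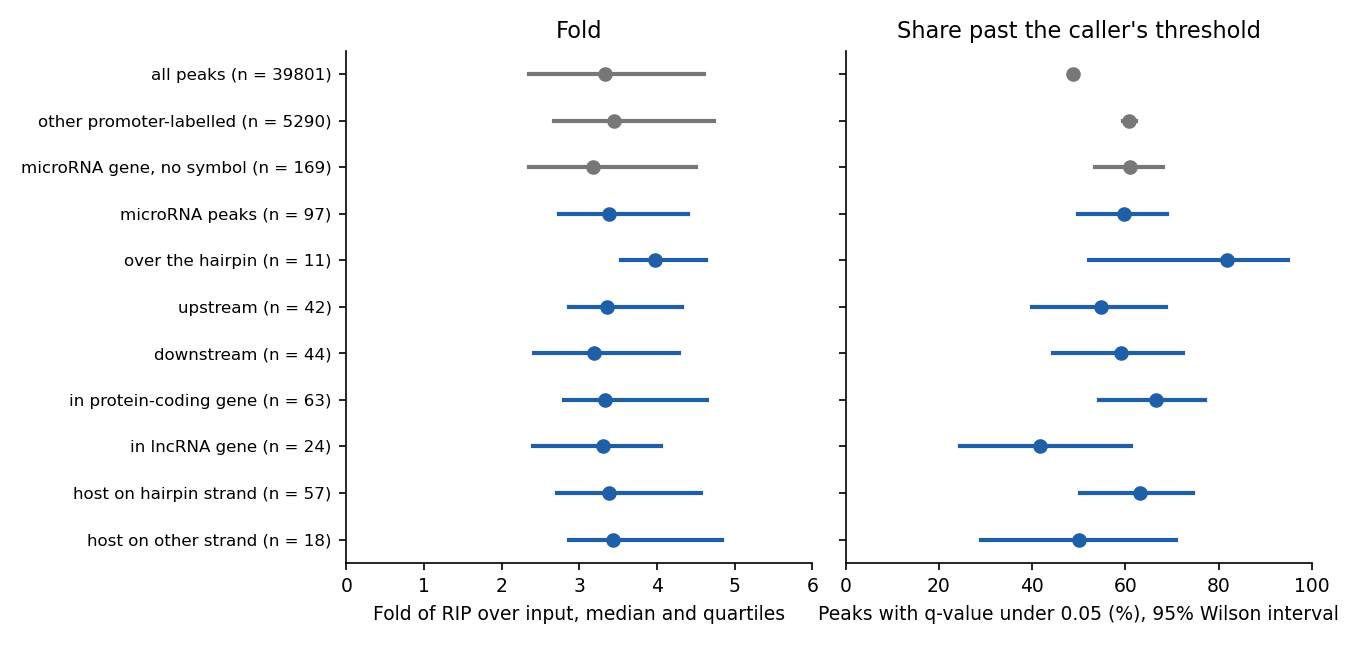
Fold of RIP over input (left, median as a point, quartiles as a bar, in linear units) and the percentage of peaks with a q-value under 0.05 (right, with 95% Wilson intervals) for the microRNA peaks and their subsets in blue and for comparison sets in grey. The microRNA peaks (median 3.38, 59.8%) sit beside the other promoter-labelled peaks (60.9%), and peaks in long non-coding genes have the lowest share, 41.7%.

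The depth behind the members was uneven. The median member had 17 RIP fragments at its summit (quartiles 5 to 42, highest 185), over a local input whose median was 2 fragments. The lowest input level of the whole list, 0.246, is under 1 fragment and so is not a count of input fragments at the place. Peaks at that level differ in fold only by their RIP fragments. Of the 97, 12 (12.4%) rested on at most 3 fragments, beside 21.4% of all peaks. A q-value of 1 was held by 14 (14.4%), beside 25.9% of all peaks and 16.6% of other promoter-labelled peaks. Folds on few fragments carry wide intervals: the peak near MIR17 had a fold of 1.76 on 2 fragments, with an interval of 0.892 to 4.35. The interval beside each fold is the exact 95% Poisson range of its RIP fragment number, the input being taken as known, and covers counting error only.

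**Figure D2:**
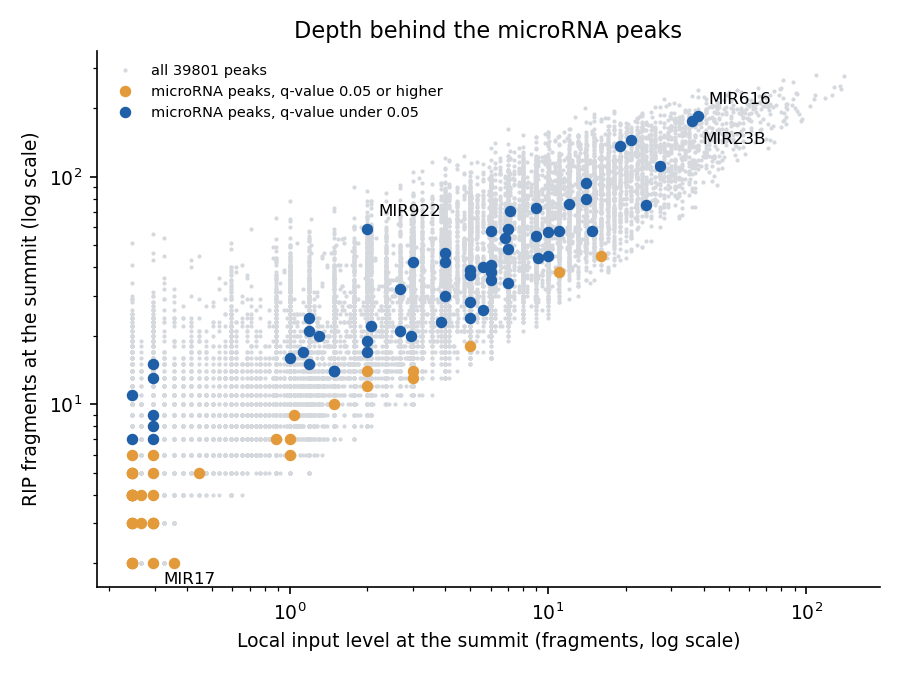
RIP fragments at the summit against the local input level in fragments, both on log axes, for all 39801 peaks (grey) and for the microRNA peaks with a q-value under 0.05 (blue) or higher (orange). MIR922 has 59 RIP fragments over an input of 2, MIR616 and MIR23B have 185 and 176 over 38.2 and 36.0, and the peaks that missed the threshold are mostly those with few fragments.

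The strongest of the 97 was a peak over the hairpin of MIR922, in RUBCN, the gene of Rubicon, an inhibitor of autophagy. It spanned chr3:197674153-197675065 on hg38 and had a fold of 13.0 (9.94 to 16.6) on 59 RIP fragments over an input of 2, with a −log10 q-value of 29.6. Both genes are read from the minus strand, and this was the strongest of 7 peaks in RUBCN. Its summit lay 186 bp downstream of the hairpin's 5′ end, past the hairpin, 5523 bp before the end of the gene. The hairpin of MIR922 lies wholly inside the peak and holds the letters GGAC, the core of the usual m6A sequence context, at 2 places, both followed by U. It is shown with GGAC in capitals, beside that of MIR4453, which lies under a peak in a microRNA host gene, MIR4453HG.
MIR922 hairpin: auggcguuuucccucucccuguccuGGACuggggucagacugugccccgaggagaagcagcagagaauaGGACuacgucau
MIR4453 hairpin: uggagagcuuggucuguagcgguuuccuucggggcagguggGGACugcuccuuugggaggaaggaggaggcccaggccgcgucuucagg
A match of these letters is a description and not a methylated site. GGAC on the hairpin's own strand was present in 18 of 69 member hairpins of the reference (26.1%) and in 427 of all 1562 human hairpins (27.3%). GGACU, which contains GGAC, was in 6 (8.70%) and 138 (8.83%). The 69 are the reference hairpins at exactly the deposited coordinates. MIR320D1, also under a member peak, is left out because its reference start differs. Among the 8 of the 69 under a peak, 4 held GGAC and 3 held GGACU.

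Peaks touched the hairpin itself in 11 of the 97, and in 8 of these the hairpin lay wholly inside the peak. Of the others, 42 lay upstream of the hairpin and 44 downstream. No summit fell inside a hairpin, and 0 of 97 allows a share of up to 3.09%. This bound is 3 divided by 97, an approximate 95% limit that takes the peaks as independent, although some share a hairpin or a gene. The median distance from summit to hairpin was 1526 bp (quartiles 617 to 2387). A q-value under 0.05 was reached by 9 of the 11 peaks over a hairpin (81.8%, 52.3 to 94.9), by 23 of 42 upstream (54.8%, 39.9 to 68.8) and by 26 of 44 downstream (59.1%, 44.4 to 72.3). These intervals overlap, and the median folds were 3.97, 3.35 and 3.19. Peaks over a hairpin were wider than those off it (median 593 against 376 bp) and had more RIP fragments (median 26 against 17). The part of width or depth in the share was not tested.

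**Figure D3:**
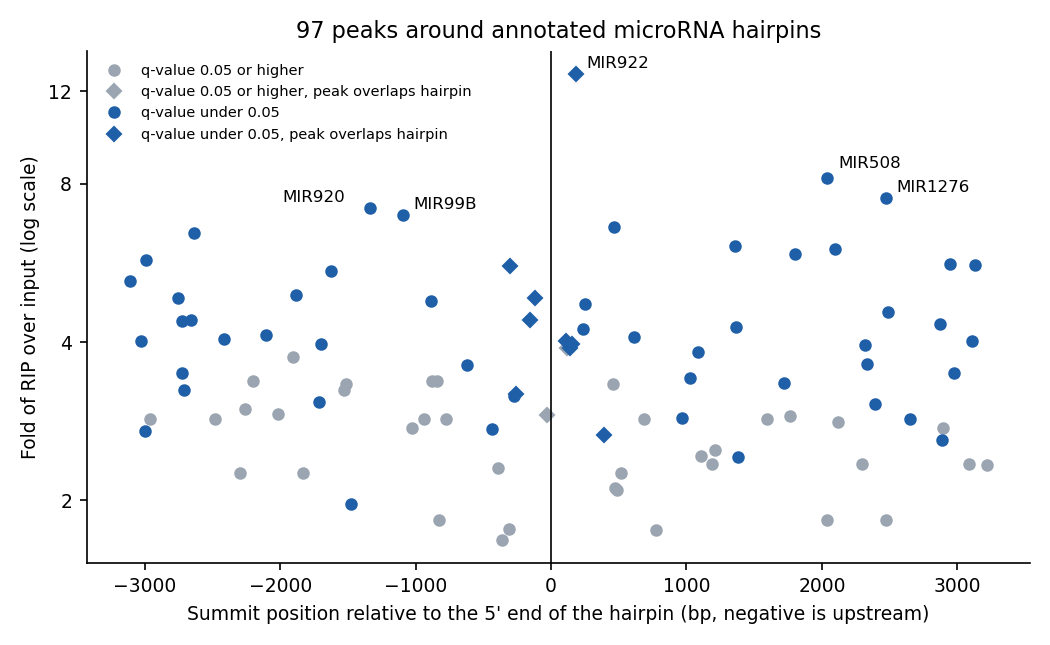
Fold of RIP over input (log axis) against the position of the summit relative to the 5′ end of the hairpin in bp, negative values upstream on the hairpin's strand, for the 97 peaks. Blue points have a q-value under 0.05, and diamonds mark the 11 peaks that overlap the hairpin, of which MIR922 alone exceeds a fold of 6, while other strong peaks such as MIR508, MIR1276, MIR920 and MIR99B lie farther away.

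The remaining peaks over hairpins were weaker. Those at 2 MIR1184 hairpins of identical sequence on chromosome X had folds of 5.59 (4.08 to 7.48), in the coagulation factor gene F8 where the nested gene F8A1 also lies, and 4.86 (2.92 to 7.73), in F8A3. Since the copies share their sequence, reads may have been split or shared between these copies and both values are uncertain. MIR4453, near the start of MIR4453HG, had 4.02 (2.38 to 6.48) on 14 fragments, the only peak in that gene. At MIR1281 the peak covered the hairpin and the start of EP300, a histone acetyltransferase gene, at 3.97 (2.96 to 5.23) with 48 fragments and its summit 73 bp into EP300. A second peak, with 3.63 (2.61 to 4.92), had its nearest edge 344 bp upstream of that hairpin and its summit outside any gene. MIR1182, in FAM89A, had 3.90 (2.84 to 5.24), and MIR671, in CHPF2, a gene of chondroitin sulphate synthesis, had 3.18 (2.44 to 4.09) on 58 fragments. For both, the summit lay near the end of the host, 825 bp and 663 bp before it. MIR1909, in REXO1, had 2.67 (1.80 to 3.84). MIR570 lay on an alternative contig outside the main chromosomes, at 4.41 (2.25 to 8.23) on 7 fragments. MIR320D1 (3.89, 1.94 to 7.53, 6 fragments) and MIR2277 (2.91, 1.49 to 5.43, 7 fragments) missed the threshold.

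**Figure D4:**
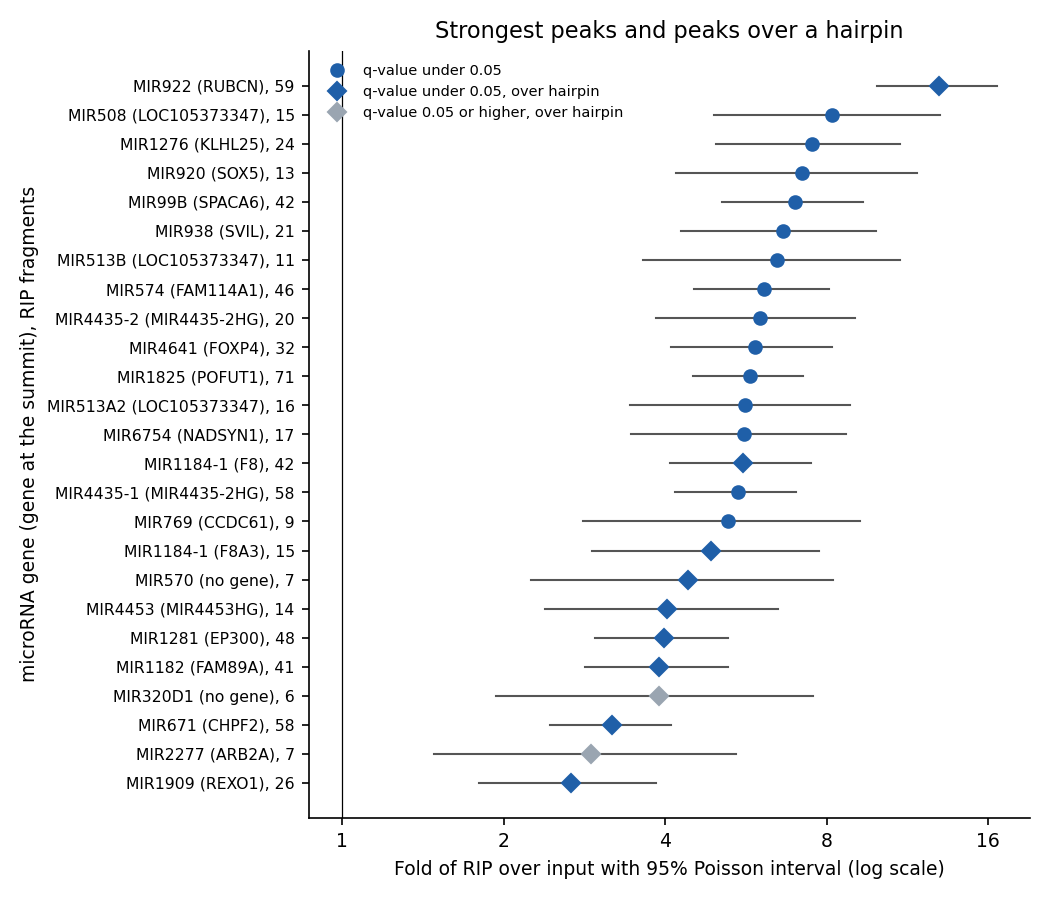
Fold of RIP over input (log axis) with exact 95% Poisson intervals for the microRNA peaks of highest fold and for all 11 that overlap a hairpin (diamonds), each labelled with its microRNA, the gene at the summit and its RIP fragments. The interval of MIR922, 9.94 to 16.6, starts above the value of every other member, and most of the other intervals overlap each other.

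Away from hairpins, the highest folds fell in protein-coding genes and in 2 long non-coding genes described later. MIR1276 lies in KLHL25, an adaptor of a ubiquitin ligase, and its peak at chr15:85767888-85768514 had a fold of 7.51 (4.97 to 10.9) on 24 fragments. The summit of that peak was 2470 bp downstream of the hairpin's 5′ end. MIR920, in SOX5, a transcription factor gene of the other strand, had 7.21 (4.2 to 11.8) on 13 fragments. The peak before MIR99B at chr19:51691099-51691844 had 6.99 (5.10 to 9.36) on 42 fragments and a −log10 q-value of 12.9. It lay in SPACA6 on the same strand, with its summit 1090 bp upstream of a cluster in which MIR99B, MIRLET7E and MIR125A follow each other. This peak was the strongest of 8 in SPACA6. MIR938, in SVIL, the gene of the actin-binding protein supervillin, had 6.63 (4.28 to 9.89), and MIR574, near the start of FAM114A1, had 6.10 (4.52 to 8.07). MIR4641, in the forkhead factor gene FOXP4, had 5.88 (4.11 to 8.18), with the summit 1857 bp before the end of the gene. A second peak there, nearer to the hairpin, had a fold of 2.11 (1.52 to 2.87) and a q-value of 0.0777. MIR1825, in POFUT1, which adds fucose to Notch receptors, had 5.74 (4.51 to 7.21) on 71 fragments. All of these except the second peak of MIR4641 had a q-value under 0.05.

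By statistical support the order was different. After MIR922, the highest −log10 q-values belonged to peaks over abundant input whose folds were moderate. MIR26A2, in the phosphatase gene CTDSP2, had a fold of 4.27 (3.61 to 5.02) on 145 fragments over an input of 21.0, at a −log10 q-value of 26.4, and this was the only peak in CTDSP2. It spanned chr12:57822849-57823615, with its summit 1365 bp downstream of the hairpin's 5′ end and 3400 bp before the end of the gene. MIR6769A, in MGRN1, a ubiquitin ligase gene, had 4.41 (3.71 to 5.21) on 136 fragments and MGRN1 held 2 stronger peaks elsewhere. MIR616, in DDIT3, the stress factor gene also called CHOP, had 3.05 (2.63 to 3.52) on 185 fragments, with its summit 282 bp before the end of the gene. MIR23B, in the aminopeptidase gene AOPEP, had 3.08 (2.64 to 3.56) on 176 fragments.

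Host transcripts could be named for most members. The summit lay in the body of a RefSeq gene for 89 of the 97, in 70 genes. In 57 the hairpin lay in that gene on the same strand, in 18 on the opposite strand, and in 4 the strand was not given. For 10 the summit was in a gene that does not hold the hairpin, and for 8 in no gene. Of the 57, 36 had a q-value under 0.05 (63.2%, 50.2 to 74.5), against 9 of the 18 on opposite strands (50%, 29.0 to 71.0), with overlapping intervals. These 18 include 8 in 1 gene, LOC105373347, of which 3 had a q-value under 0.05, while the intervals take all peaks as independent. The 57 peaks fell in 49 host genes, 12 within 2 kb of the host's annotated end and 4 within 2 kb of its start. Over all 89 with a gene at the summit, whether or not that gene holds the hairpin, the member was its only peak in 18 cases. In 21 the member was the strongest of several. All 97 carry a promoter label in the deposited table, since that label goes to any peak within 3 kb of a start and takes precedence, and none is labelled as exon, intron or UTR.

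Protein-coding genes held 63 of the summits and long non-coding genes 24. A q-value under 0.05 was reached by 42 of the 63 (66.7%, 54.4 to 77.1) and by 10 of the 24 (41.7%, 24.5 to 61.2). The median folds were 3.33 and 3.31, while the median of RIP fragments was 24 against 6 and that of the input level 3 against 0.296. The 24 include 8 in 1 gene, LOC105373347, of which 3 had a q-value under 0.05. The part of depth, or of this gene, in the share was not tested.

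Several members sit at clusters, where 1 primary transcript yields many microRNAs. More than 1 reference hairpin lay within 3 kb of the summit for 15 of the 97. That count includes hairpins on opposite strands of the same place, such as MIR3130-1 and MIR3130-2, which are no such cluster. The peak beside MIR367 lay in MIR302CHG, the host of the MIR302 cluster known from pluripotent cells, which runs inside LARP7. It had a fold of 4.09 (3.32 to 4.99) on 94 fragments at a −log10 q-value of 16.1 and was the only peak in MIR302CHG. Its RNA cannot be told apart from that of LARP7, whose protein binds the 7SK RNA. At the MIR23B cluster, which also holds MIR27B and MIR24-1, the peak assigned to MIR3074, on the opposite strand, had 4.78 (3.77 to 5.99) on 73 fragments, and that of MIR23B had 3.08. AOPEP, around both, had 15 peaks in all with a highest fold of 14.3. MIR421, in the long non-coding gene FTX, had 3.42 (2.61 to 4.40) on 57 fragments. By contrast, the peak at MIR17, upstream of 6 hairpins in MIR17HG, rested on 2 fragments, and that at MIR363, with 4 hairpins near, on 3 (fold 2.35, 1.12 to 5.32). Both had a q-value of 1.

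A set of genes carries the names of the microRNAs they host. Of 87 RefSeq genes whose name begins with MIR or MIRLET and ends in HG, 24 held a summit (27.6%), 16 one with a q-value under 0.05 (18.4%), and 7 a member. Over all 18303 long non-coding genes the shares were 13.99% and 7.43%, but the median span of those genes was 9.04 kb against 19.5 kb for the 87, and a longer gene has more room for a summit. MIR4435-2HG, a long non-coding gene of 299296 bp, had 27 summits, of which 12 reached a q-value under 0.05. The 3 members in it lay around the MIR4435-2 hairpin, with folds of 6.01 (3.84 to 9.04), 5.46 (4.18 to 7.01) and 4.05 (2.80 to 5.70), although the table assigned the second and the third to MIR4435-1. The strongest peak of that gene, at 15.9 (11.1 to 22.1), was farther from the hairpin. A peak beside the MIR4435-1 hairpin itself, in NCAL1, had 3.97 (2.45 to 6.15). Both hairpins yield hsa-miR-4435, so the assignment between these copies is uncertain.

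A single long non-coding gene on chromosome X held 8 of the 97. LOC105373347 spans 90.8 kb on the plus strand, and 10 hairpins of the MIR506 to MIR514 group lie in it on the minus strand. Its 11 peaks rested on 3 to 16 fragments over inputs of 0.246 to 1. The first of these is the lowest input level of the whole list, and the peak of MIR513B was among those at it. Among the members, MIR508 had a fold of 8.20 (4.93 to 13.0) on 15 fragments, MIR513B had 6.47 (3.63 to 10.9) on 11, and MIR513A2 had 5.63 (3.43 to 8.83) on 16, all with a q-value under 0.05. The other 5 members there had folds from 2.26 to 3.74 and missed it. MIR508 had 3 peaks, the strongest downstream of the hairpin and the others, with 2.86 and 2.26, upstream. With no strand, peaks from LOC105373347 and from primary transcripts of these hairpins cannot be told apart.

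**Figure D5:**
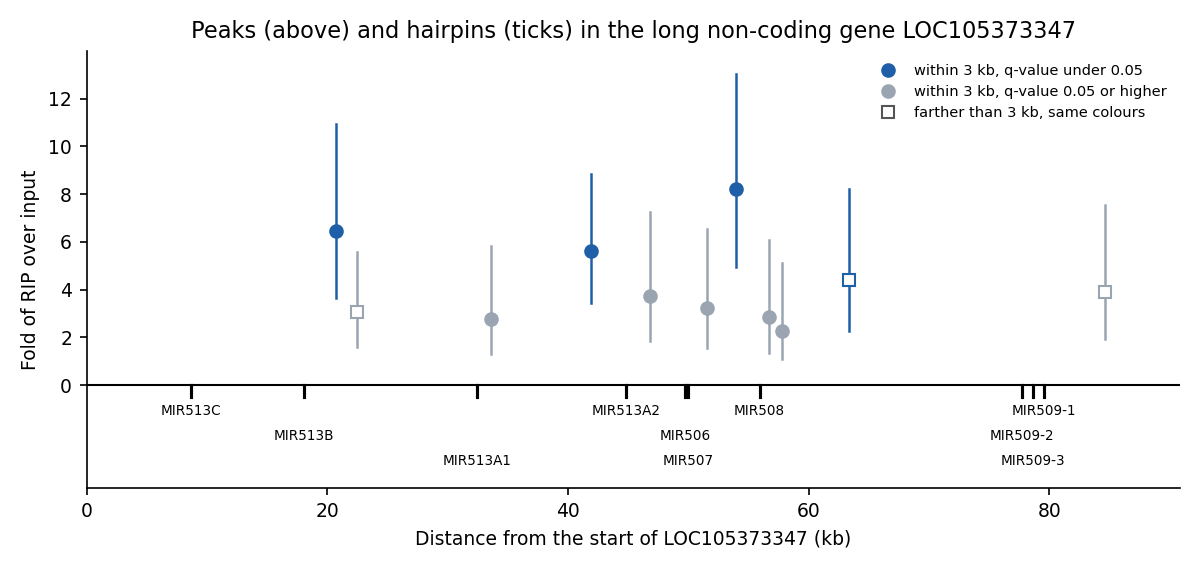
Fold of RIP over input with exact 95% Poisson intervals for the 11 peaks in LOC105373347 against distance from the start of the gene in kb, with hairpins as ticks under the axis. Filled points are the 8 peaks within 3 kb of a hairpin; MIR508 at 8.20, MIR513B at 6.47 and MIR513A2 at 5.63 are the filled blue ones, and no peak covers a hairpin.

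The shared seeds printed above were carried by peaks of unequal depth. MIR103A2, in PANK2, had a fold of 3.16 (2.16 to 4.49) on 28 fragments with a q-value of 0.00317, and its peak ended 12 bp before the hairpin. MIR107, in PANK1, had peaks of 3.38 (1.64 to 6.81) and 2.31 (1.1 to 5.23), on 5 and 3 fragments, which missed the threshold. Their intervals overlap. MIR367 had 4.09 (3.32 to 4.99) on 94 fragments over an input of 14. MIR363 had 2.35 (1.12 to 5.32) on 3 fragments over an input of 0.246, and these intervals overlap as well.

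MicroRNAs with a known part in liver or growth were counted by lists, beside all 1562 reference hairpins, of which 17.3% had a summit within 3 kb and 10.9% one with a q-value under 0.05. Of 14 hepatocyte microRNAs, among them MIR122, none had a member, and none of the 11 found in the reference had any summit within 3 kb. Of 31 growth-promoting microRNAs of liver cancer, 26 were in the reference and MIR17 and MIR363 were members. With their clusters, 10 of the 26 had a summit within 3 kb, through 2 peaks of 2 and 3 fragments, and none had a q-value under 0.05. Of 48 growth-restraining microRNAs, 44 were in the reference and 4 were members. MIR26A2 is described above. MIRLET7F2, of the let-7 family, lies with MIR98 in HUWE1, a ubiquitin ligase gene, and had 1.96 (1.55 to 2.45) on 75 fragments over an input of 24.0, with a q-value of 0.00296. MIR126, known from endothelial cells, had 2.60 (2.15 to 3.12) on 112 fragments, with the summit in the neighbouring lipid synthesis gene AGPAT2. MIR34A, a target gene of p53, had 2.42 (1.21 to 4.69) on 6 fragments in MIR34AHG and a q-value of 1. With MIRLET7E, MIR98 and MIR200C through peaks assigned elsewhere, 7 of the 44 had a summit within 3 kb, 5 of them with a q-value under 0.05, which is near the share over all hairpins. A microRNA without a peak may be unmethylated there or little transcribed, which a peak list cannot tell apart.

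Of 26 genes whose proteins make and use microRNAs, 18 had a summit in the gene body (69.2%) and 16 one with a q-value under 0.05 (61.5%). Over all 20037 protein-coding genes the shares were 49.3% and 38.95%, with a median span of 24.1 kb against 52.0 kb for the 26, so nothing particular to these genes is read from the counts. DROSHA had 10.3 (6.82 to 15) in its 3′ UTR, DICER1 8.68 (6.39 to 11.5) in an exon and DGCR8 5.37 (4.10 to 6.91) in its 3′ UTR. The silencing partners TNRC6B and AGO4 had 10.3 (7.48 to 13.8) and 9.09 (5.87 to 13.6), and TUT7, which adds uridine to precursors, had 8.93 (7.14 to 11).

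Around the distance limit, peaks just inside and just outside are given as a description, with negative distances upstream. The 3 farthest members were MIR6839 at 2942 bp with a fold of 2.34, MIR181B1 at 2954 bp with 2.35 and MIR769 at -2977 bp with 5.23 (2.81 to 9.23). The nearest peaks outside were MIR1284 at 3017 bp with 3.74, MIR614 at -3046 bp with 2.80 and MIR620 at -3120 bp with 3.25.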

How the data were processed

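The submitters' processing notes name HISAT2 (alignment), MACS2 (peak calling) and hg38, without versions; no settings were found in the labels. The authors deposited 1 annotated table in which each peak of the RIP over the input has a fold (a linear ratio), a −log10 p-value and a −log10 q-value; the headers of the last 2 were damaged and their meaning was read from the values (99.99% of the deposited scores are 10 times the first, rounded down). Peaks were called on 1 library against 1 input, and the authors' values were used within this list only. The lowest −log10 p-value of the peak caller in it was 1.30, so being listed is weak support, and 48.8% of its peaks reached a q-value under 0.05.

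RIP fragments and input levels were recovered as the numbers that give both the fold and the Poisson p-value, with a RIP scale of 0.642 (RIP 1.56 times the input in size) and a pseudocount of 1. All peaks were met within 0.001 on −log10 p, 98.2% by a single solution; 2 members had several. The recovery was also run on peaks simulated from the same formula, which checks the calculation and not whether the deposited values follow that formula. Total depth is unknown.

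Hosts came from RefSeq gene spans of GRCh38.p14, strands from its promoter table and hairpins from its microRNA table. Of the 80 symbols, 71 had a hairpin there; 83 members lay at the hairpin of their symbol, 4 at another copy and 10 at none, where deposited coordinates were used. Exon models and a genome were not used here, so peak sequences are not shown. No test between conditions was possible, and none was run across peaks. The members and gene lists were chosen with earlier results of these data known. Named with values were the 12 members of highest fold and 5 of highest −log10 p, each with a q-value under 0.05, those with most peaks, those over a hairpin, list members, and the 3 on each side of the limit; other members named at clusters, shared seeds and second peaks were chosen after their values were seen. Alternatives covered the distance limit, thresholds, the depth of peaks, the host definition and chromosomes. Python 3.11.15, scipy 1.17.1 and matplotlib 3.10.9 were used.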

Additional observations from a re-analysis of the deposited data

How the results depend on the processing

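No value has a replicate check, and no paired analysis was possible because each group had 1 library and no result comes from a test. The number of peaks, 97, was 42 at a limit of 1 kb, 26 at 500 bp, 289 when any RefSeq hairpin within 3 kb of a summit counted whatever gene was assigned, 266 with gene identifiers standing in for empty symbols, and 57 with the host on the hairpin's strand only. The last pair of alternatives was chosen after seeing the data. The share with a q-value under 0.05, 59.8%, was 35.1% at 1e-5. The share with a fold of at least 4, 35.1%, was 59.8% at 3 and 9.28% at 6. The overlap with hairpins, 11 peaks, was 0 when the summit had to lie inside. The number with a summit in a gene body, 89, was 0 by the deposited exon or intron label, which the promoter label replaces. It was 57 where that gene had to hold the hairpin on the same strand. The share in exons or UTRs was 0 by the deposited labels, and leaving out promoter labels left no peak to count. The median fold, 3.38, stayed between 3.29 and 4.10 under its alternatives, less than 1 SD of the members' folds away, and leaving out the alternative contig moved no result past its interval or by 1.5 times. Precision is limited by fragments: 12 members had at most 3.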

Other observations

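The symbol rule left out some of the strongest peaks at hairpins. Over all 1562 reference hairpins, 270 (17.3%) had a summit within 3 kb and 171 (10.9%) one with a q-value under 0.05. Peaks overlapped 22 hairpins, and 2 summits lay inside a hairpin. The highest fold over a hairpin was 18.8 (14.7 to 23.6) on 71 RIP fragments, at MIR1260B, whose symbol field was empty, against 13.0 at MIR922. MIR4466 had 18.9 (15.2 to 23.3), with its summit 1466 bp from the hairpin. These genes were chosen after their values were seen.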
